A study of Mus musculus with 44 samples.

Results

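The nuclear receptors Nr4a1, Nr4a2 and Nr4a3, the kinase Sik1, the transcription factor Crem, the coactivator Crtc2 and the phosphodiesterase Pde4b were followed in mouse liver after an acute treadmill run. Members of this set of 7 regulators of the cAMP response were taken as the probe sets that the array annotation gives to exactly 1 of these symbols. Each gene had 1 such probe set, so 7 of 41345 probe sets were used. All 7 passed the filter of the methods, which asks that the linear mean exceed 4 in 1 or more groups and left 18522 probe sets for the tests. Nr4a3 and Pde4b passed only through the exercised groups, and Nr4a2 passed through both exercised groups and the sedentary vitamin E group. Counts over these genes are therefore descriptions and not tests of the set.

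The study asked whether vitamin E supplementation alters the acute response of the liver to exercise. Livers of 44 male C57BL/6N mice, 11 to 12 weeks old, were each measured on 1 array (Affymetrix Mouse Gene 2.1 ST). There were 12 exercised and 10 sedentary mice on the vitamin E diet (vitamin E at 2000 IU/kg as alpha-tocopheryl acetate, vitamin C at 100 mg/kg) and 12 exercised and 10 sedentary mice on the control diet (vitamin E at 149 IU/kg, vitamin C at 0 mg/kg), each fed for 4 weeks. Exercised mice ran once for 60 min at 13 m/min on a slope of 14 degrees and their livers were taken directly afterwards, whereas sedentary mice stayed in cages beside the treadmill with food withdrawn for the last 60 min. The diets differed in both vitamins, so an effect of 1 of them cannot be told apart from that of the other. No mouse carried a genetic modification. The animal numbers in the labels start with 24 or 27, and each of these number series held all 4 groups, with between 4 and 6 mice per group. What the series stand for is not stated.

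The second messenger cAMP rises in hepatocytes when glucagon or catecholamines bind their receptors, as they do during fasting and exercise. It activates protein kinase A (PKA), which phosphorylates the transcription factor CREB and releases CRTC coactivators from their inhibition by salt-inducible kinases. CREB binds the cAMP response element, a palindrome, or 1 arm of it called a half-site, and switches on genes of glucose production together with early genes that feed back on the pathway. The 3 Nr4a genes encode orphan nuclear receptors that are induced within minutes to hours and, in mouse liver, promote gluconeogenic gene expression. Sik1 encodes an inducible kinase that phosphorylates CRTC2 and so restrains the pathway. Crem encodes CREB-related proteins, among them the inducible repressor ICER, and Pde4b encodes an enzyme that degrades cAMP.

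The Nr4a promoters are shown because the 3 genes are 1 family and are known to be induced by cAMP, so that the letters of the response element before their starts are of interest. Each line gives the 250 bases before the annotated start, 5′ to 3′ on the gene's strand, from RefSeq (GRCm38.p6), with the half-sites of the cAMP response element in capitals (TGACG, or CGTCA where it lies on the opposite strand). The Nr4a1 stretch is chr15:101266596-101266845 on the plus strand, that of Nr4a2 is chr2:57124004-57124253 on the minus strand, and that of Nr4a3 is chr4:48045055-48045304 on the plus strand.
Nr4a1 promoter: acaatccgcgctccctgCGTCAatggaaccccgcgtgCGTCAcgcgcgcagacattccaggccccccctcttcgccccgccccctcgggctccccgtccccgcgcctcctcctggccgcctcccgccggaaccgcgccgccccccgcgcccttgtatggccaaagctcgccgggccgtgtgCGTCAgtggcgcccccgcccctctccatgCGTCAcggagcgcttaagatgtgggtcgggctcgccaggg
Nr4a2 promoter: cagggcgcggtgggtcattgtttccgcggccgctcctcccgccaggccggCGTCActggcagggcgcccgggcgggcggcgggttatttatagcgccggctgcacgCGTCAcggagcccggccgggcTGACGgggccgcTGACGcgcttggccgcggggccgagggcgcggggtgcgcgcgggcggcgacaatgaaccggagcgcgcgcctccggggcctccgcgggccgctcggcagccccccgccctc
Nr4a3 promoter: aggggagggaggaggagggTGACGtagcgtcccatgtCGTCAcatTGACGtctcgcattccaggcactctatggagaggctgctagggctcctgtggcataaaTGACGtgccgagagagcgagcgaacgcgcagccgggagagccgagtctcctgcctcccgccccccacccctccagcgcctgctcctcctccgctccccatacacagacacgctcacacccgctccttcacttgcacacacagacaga

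Each of the 3 promoters held 4 half-sites and none held the complete element TGACGTCA. In Nr4a1 the half-sites began at positions -233, -213, -69 and -40, all on the opposite strand. In Nr4a2 they began at -200, -144, -123 and -111, and in Nr4a3 at -231, -213, -205 and -147. The map of half-sites shows that those of Nr4a2 and Nr4a3 all lay more than 100 bases before the start, which in Nr4a1 was the case for the outer pair alone. Of 32851 annotated mouse promoters of the same length, 17.8% held at least 1 half-site, 0.137% held at least 4 and 1.55% held the complete element. The 3 promoters were rich in G and C, at 74.4% in Nr4a1, 80.0% in Nr4a2 and 63.6% in Nr4a3, and of the 9178 promoters with at least 60% G and C, 0.37% held at least 4 half-sites. Pde4b, with 4 annotated starts in the table, had 1 half-site before 1 of them, at position -34, and none before the others. A match describes these letters and does not show that a factor bound there.

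**Figure D1:**
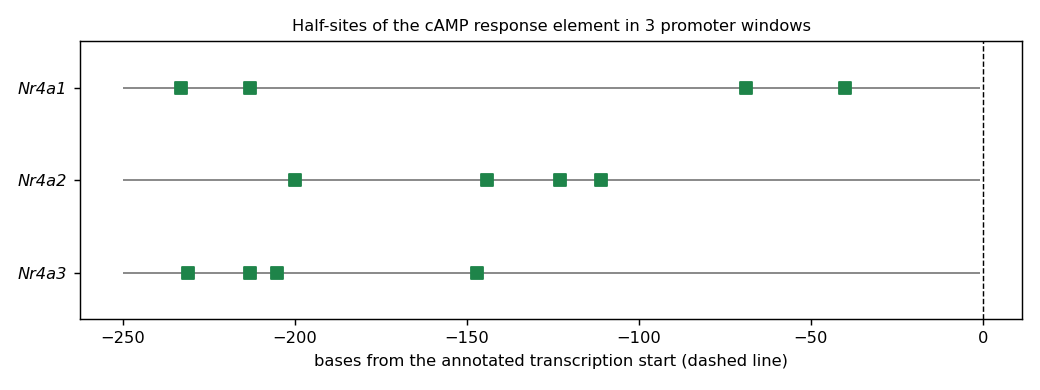
Position of each half-site (square, TGACG on either strand) in the 250 bases before the annotated start of Nr4a1, Nr4a2 and Nr4a3; the x axis is the distance from the start in bases. Each promoter carried 4 half-sites, and in Nr4a1 those at -69 and -40 lay closest to the start.

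Array medians lay between 1.53 and 1.669 on the log2 scale. The labelled tissue was checked with 6 hepatocyte markers, all measured, whose mean log2 value lay between 9.80 and 10.34 in every mouse. Ass1 was low among them, at 3.38 on average over all mice, while the others averaged between 10.14 and 12.12. Of the markers of other cells, all passed the filter for Kupffer cells (10 of 10), sinusoidal endothelial cells (7 of 7) and stellate cells (6 of 6). The filter left 3 of 4 cholangiocyte, 2 of 7 neutrophil and 2 of 7 T and NK cell markers, and the 3 B cell markers with a probe set used here all lay below it. In bulk liver a change in the number of cells of a type and a change in RNA per cell cannot be told apart. Levels are log2 expression values, effects are differences of log2 values from limma, and a gene was called at a Benjamini-Hochberg adjusted p under 0.05 over all 18522 probe sets.

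Exercise raised Nr4a1 and Sik1 in control-fed mice, and Sik1 also in vitamin E-supplemented mice, and no gene of the set fell. On the control diet 2 of the 7 genes were called higher, against 0.599% of all probe sets higher and 0.081% lower. On the vitamin E diet 1 of the 7 was called, against 0.2% higher and 0.0324% lower. Over the mean of both diets the same genes, Nr4a1 and Sik1, were called, against 0.961% higher and 0.232% lower. All 7 estimates were above 0 on both diets, with a median of 0.35 on the vitamin E diet and 0.69 on the control diet, while the median of all probe sets was -0.02 and 0.02. The 2 comparisons use different mice.

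Among the nuclear receptors, Nr4a1 (Nur77, probe set 17315178, chromosome 15) had the largest exercise effects. Its log2 level had a lowest, median and highest value of 2.83, 3.97 and 6.58 in exercised vitamin E-supplemented mice, against 1.81, 2.54 and 4.07 in sedentary mice on that diet. In control-fed mice these values were 2.39, 4.59 and 6.99 after exercise, against 1.7, 2.32 and 3.91 in the sedentary state. The groups overlapped on both diets, but all 12 exercised mice of each diet lay above the median of their sedentary group, and 5 of 12 on vitamin E and 8 of 12 on control diet lay above its highest mouse. With vitamin E the mean was 4.26 ± 1.05 (SD, n = 12) after exercise against 2.67 ± 0.73 (SD, n = 10) in sedentary mice. With control diet it was 4.69 ± 1.41 (SD, n = 12) after exercise against 2.45 ± 0.60 (SD, n = 10) in sedentary mice. The effect was 1.60 on the vitamin E diet (standard error 0.43, adjusted p = 0.131 from limma) and 2.24 on the control diet (standard error 0.43, adjusted p = 0.00285). Over both diets it was 1.92, a 3.78-fold increase (95% interval 2.48 to 5.76, adjusted p = 6.11e-05).

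Nr4a2 (Nurr1, probe set 17385374, chromosome 2) and Nr4a3 (Nor1, probe set 17413945, chromosome 4) had smaller effects that did not pass the adjusted threshold. Nr4a2 ran from 1.52 over a median of 2.43 to 3.63 in exercised and from 1.64 over 1.94 to 2.60 in sedentary vitamin E-supplemented mice. On the control diet it ran from 1.92 over 2.40 to 5.58 in exercised mice and from 1.66 over 1.85 to 2.20 in sedentary mice. All 12 exercised control-fed mice lay above the sedentary median and 8 of 12 above the highest sedentary mouse. The effect was 0.43 with vitamin E (standard error 0.29, adjusted p = 0.938) and 0.91 with control diet (standard error 0.29, unadjusted p = 0.00314, adjusted p = 0.201).

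For Nr4a3 the lowest, median and highest values were 1.31, 1.76 and 4.02 in exercised and 1.17, 1.64 and 2.71 in sedentary vitamin E-supplemented mice. They were 1.32, 2.27 and 4.09 in exercised and 1.09, 1.67 and 2.22 in sedentary control-fed mice. The groups overlapped more than those of Nr4a1, with 2 of 12 exercised mice above the highest sedentary mouse on vitamin E and 6 of 12 on control diet. The effect was 0.34 (adjusted p = 0.959) with vitamin E and 0.69 (standard error 0.29, unadjusted p = 0.021, adjusted p = 0.402) with control diet.

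The highest Nr4a values after exercise came from a few mice. Exercised control mice 7 and 9 had Nr4a1 at 6.99 and 6.94, Nr4a2 at 4.80 and 5.58 and Nr4a3 at 3.90 and 4.09, the top values of their group for each gene, and the next Nr4a2 value was 2.73. Without these mice, a setting chosen after seeing the data, the control-diet effect was 1.78 for Nr4a1 (adjusted p = 0.0191), 0.43 for Nr4a2 and 0.37 for Nr4a3. The exercise effect of Nr4a1 on the vitamin E diet stayed at 1.60, with an adjusted p of 0.0409 from limma. No mouse of that diet was left out, and all groups share 1 estimate of the spread, so this call adds nothing about that diet. On the vitamin E diet mouse 2 was highest for Nr4a1 and mouse 12 for Nr4a2 and Nr4a3. The mean of the 10 Kupffer cell markers was 4.92 and 4.58 in exercised control mice 7 and 9, within the range of 4.08 to 6.33 of their group, and that of the 2 neutrophil markers above the filter was 3.03 and 1.30, within 1.01 to 7.14. Mouse 7 ranked 2 of 12 for the Kupffer cell markers and 3 of 12 for the neutrophil markers, and mouse 9 ranked 4 and 8 of 12, counted from the highest. The tops of both ranges belonged to mouse 6. The part of these markers in the Nr4a levels was not tested. In exercised vitamin E mouse 2 these means were 5.91 and 4.06, the highest of its group.

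**Figure D2:**
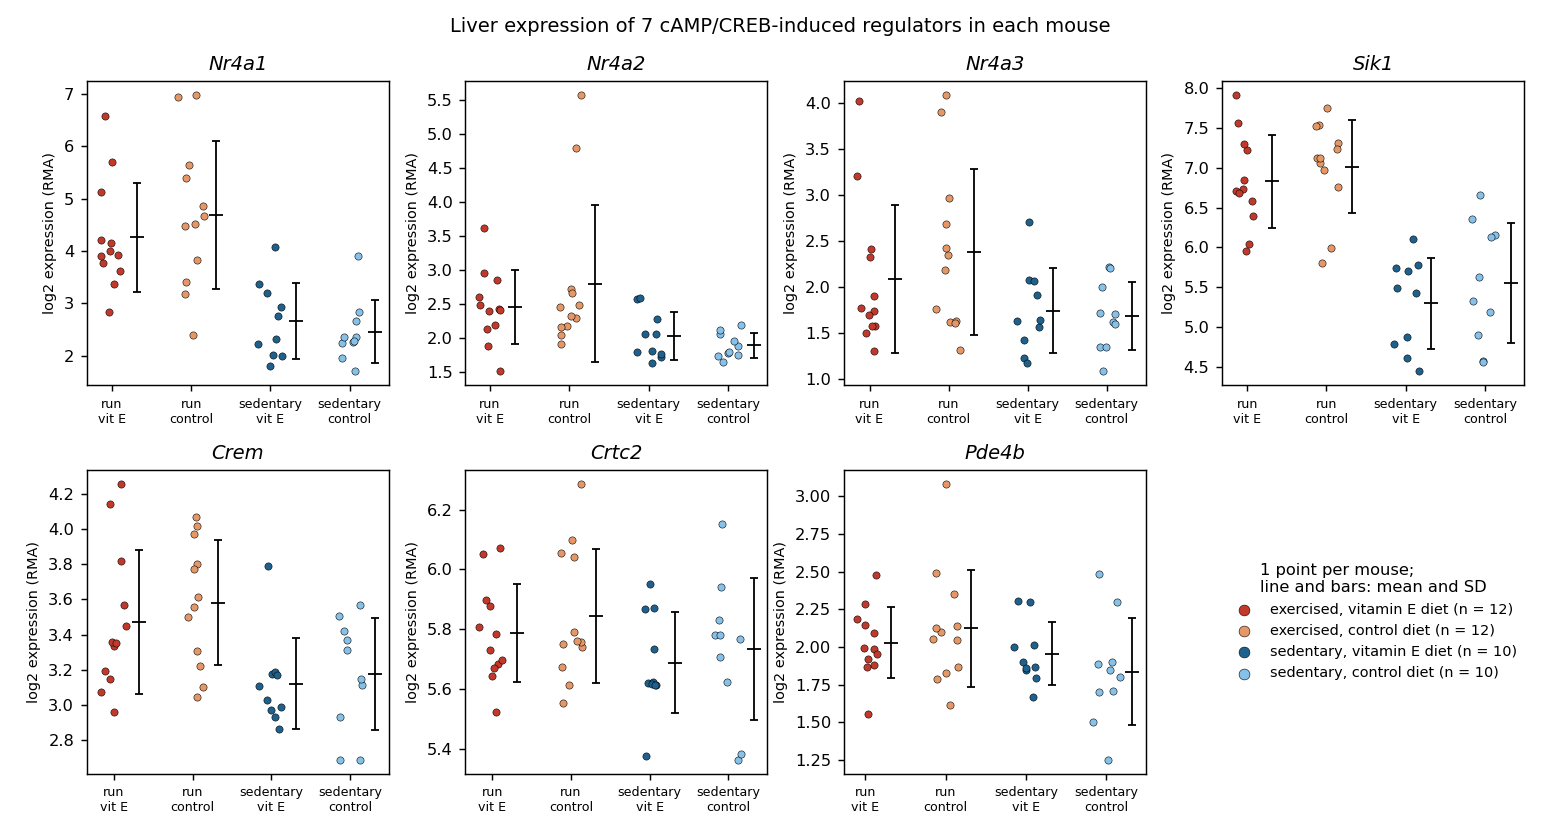
Log2 expression of the 7 genes in each of 44 mice (points), with the mean and SD of each group beside them, for exercised and sedentary mice on the vitamin E and control diets. Sik1 separates exercised from sedentary mice most clearly, with 10 of 12 exercised mice on each diet above the highest sedentary mouse, and a pair of exercised control mice stands apart for Nr4a2 at 4.80 and 5.58.

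Among the kinases and coactivators, Sik1 (probe set 17343263, chromosome 17) rose on both diets. Its lowest, median and highest log2 levels were 5.96, 6.72 and 7.92 in exercised against 4.44, 5.46 and 6.11 in sedentary vitamin E-supplemented mice. They were 5.80, 7.12 and 7.75 in exercised against 4.56, 5.48 and 6.66 in sedentary control-fed mice. On each diet 10 of 12 exercised mice lay above the highest sedentary mouse and all 12 above the sedentary median, although the groups still overlapped. With vitamin E the mean was 6.83 ± 0.58 (SD, n = 12) after exercise against 5.29 ± 0.57 (SD, n = 10) in sedentary mice. With control diet it was 7.02 ± 0.59 (SD, n = 12) after exercise against 5.55 ± 0.75 (SD, n = 10) in sedentary mice. The effect was 1.53 on the vitamin E diet (standard error 0.26, adjusted p = 0.000822) and 1.47 on the control diet (standard error 0.26, adjusted p = 0.00106), or 2.83-fold over both diets (95% interval 2.19 to 3.67, adjusted p = 4.78e-07). With the Wilcoxon rank-sum test, the control-diet comparison of Sik1 missed the threshold (adjusted p = 0.064).

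Crtc2 (probe set 17399679, chromosome 3), the coactivator that Sik1 phosphorylates, varied little. Its log2 level lay between 5.52 and 6.07 in exercised and between 5.38 and 5.95 in sedentary vitamin E-supplemented mice. It lay between 5.55 and 6.29 in exercised and between 5.36 and 6.15 in sedentary control-fed mice, so the groups overlapped almost entirely. The exercise effect was 0.10 (95% interval -0.08 to 0.28) on the vitamin E diet and 0.11 (-0.07 to 0.29) on the control diet, so an increase above 0.29 on the log2 scale lay outside both intervals.

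Crem (probe set 17352371, chromosome 18) lay between 2.96 and 4.26 in exercised vitamin E-supplemented mice, with a median of 3.36, against 2.86 to 3.79 and a median of 3.07 in sedentary mice. On the control diet it lay between 3.04 and 4.07 with a median of 3.59 in exercised mice, against 2.68 to 3.57 and 3.23 in sedentary mice. Groups overlapped, with 3 of 12 exercised mice above all sedentary mice on vitamin E and 6 of 12 on control diet. The effect was 0.35 (standard error 0.15, adjusted p = 0.644) with vitamin E, 0.41 (standard error 0.15, adjusted p = 0.289) with control diet and 0.38 over both diets, just short of the threshold (standard error 0.10, adjusted p = 0.0544). Leaving out 1 mouse at a time called Crem over both diets in 10 of 44 fits, with an adjusted p of 0.0213 without sedentary vitamin E mouse 8. Its probe set reports the gene as a whole and gives no separate value for ICER.

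Pde4b (probe set 17416023, chromosome 4) was near the filter limit, between 1.55 and 2.48 in exercised and 1.67 and 2.31 in sedentary vitamin E-supplemented mice, and between 1.61 and 3.09 in exercised and 1.25 and 2.48 in sedentary control-fed mice. The effect was 0.07 (95% interval -0.19 to 0.34) with vitamin E and 0.29 (0.02 to 0.55, unadjusted p = 0.0333, adjusted p = 0.48) with control diet.

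Before adjustment, 3 of the 7 genes (Nr4a1, Sik1 and Crem) had a p under 0.05 for an increase on the vitamin E diet, against 2.71% of all probe sets. On the control diet 6 of 7 did, all but Crtc2, against 5.96%. With the threshold of the methods, an unadjusted p under 0.05 and a fold change of medians above 1.2, the counts were 3 of 7 against 1.97% on the vitamin E diet and 5 of 7 against 3.96% on the control diet.

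The exercise effects had the same sign in both number series. Fitted within series over both diets, Nr4a1 rose by 1.95 in series 24 (adjusted p = 0.00942) and by 1.84 in series 27 (adjusted p = 0.0305), and Sik1 by 1.61 (adjusted p = 0.000248) and 1.36 (adjusted p = 0.0059). These were the 2 genes called in each series, against 0.346% of all probe sets higher in series 24 and 0.324% in series 27. These fits took the spread from all 44 mice, and with series 27 fitted alone Nr4a1 was not called (1.84, adjusted p = 0.126). The other effects were 0.48 in series 24 and 0.83 in series 27 for Nr4a2, 0.44 and 0.54 for Nr4a3, 0.43 and 0.31 for Crem, 0.19 and 0.01 for Crtc2, and 0.21 and 0.12 for Pde4b. The test of the difference between series called 0 of the 7 genes and 0 of 18522 probe sets (0%), and at an unadjusted p under 0.05 it gave 0 of 7 against 4.12% of probe sets.

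Vitamin E did not detectably change any of the 7 genes. In exercised mice the estimates of vitamin E-supplemented minus control-fed mice were -0.43 for Nr4a1 (95% interval -1.25 to 0.39), -0.34 for Nr4a2 (-0.90 to 0.21), -0.29 for Nr4a3 (-0.85 to 0.26), -0.19 for Sik1 (-0.69 to 0.32), -0.11 for Crem (-0.39 to 0.17), -0.06 for Crtc2 (-0.23 to 0.11) and -0.10 for Pde4b (-0.35 to 0.16). By limma 0 of 7 passed the adjusted threshold, as did 0 of 18522 probe sets (0%), and 0 of 7 had an unadjusted p under 0.05 against 5.6% of probe sets. All 7 estimates were below 0, as were those of 10173 of 18522 probe sets (median of all -0.02). The 7 estimates come from the same mice and are not separate observations. The medians of the exercised groups differed by -0.63 for Nr4a1, with 9 of 12 vitamin E-supplemented mice below the control median, by -0.51 for Nr4a3, with 8 of 12 below it, and by 0.03 for Nr4a2. Without exercised control mice 7 and 9 the estimates were 0.03 for Nr4a1, 0.13 for Nr4a2 and 0.03 for Nr4a3, but this setting takes the highest mice out of the control group alone. Leaving out 1 mouse at a time gave -0.64 (without exercised vitamin E mouse 2) to -0.22 for Nr4a1, -0.45 to -0.09 for Nr4a2 and -0.47 (without exercised vitamin E mouse 12) to -0.14 for Nr4a3.

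In sedentary mice the diet effects ran from -0.25 for Sik1 to 0.21 for Nr4a1, with 0 of 7 genes and 0 of 18522 probe sets (0%) called and 0 of 7 genes at an unadjusted p under 0.05 against 4.77%. The interaction, the exercise effect on the vitamin E diet minus that on the control diet, was -0.64 for Nr4a1 (95% interval -1.85 to 0.58), -0.48 for Nr4a2 (-1.30 to 0.35), -0.35 for Nr4a3 (-1.17 to 0.48), 0.06 for Sik1 (-0.68 to 0.81), -0.06 for Crem (-0.48 to 0.36), -0.01 for Crtc2 (-0.26 to 0.24) and -0.22 for Pde4b (-0.59 to 0.16). It was called for 0 of 7 genes and 0 of 18522 probe sets (0%), and 0 of 7 had an unadjusted p under 0.05 against 5.49%. Nr4a1 was called after exercise on the control diet alone, and this interval covers both an unchanged response and one reduced by more than 1 log2 unit. The vitamin E comparisons share their mice with the exercise comparisons above. The 10 Kupffer cell markers had exercise effects that were all below 0 on the vitamin E diet (median -0.28) and all above 0 on the control diet (median 0.33), 0 of 10 called on either diet. Their vitamin E estimates were all above 0 in sedentary mice (median 0.46), where 2 of 10 had an unadjusted p under 0.05 by limma. Sedentary vitamin E mice 1 and 3 had the highest means of these markers in their group, 6.19 and 6.04. In sedentary control mice these means lay between 3.61 and 5.28. The vitamin E estimates of the markers were all below 0 in exercised mice (median -0.11), with 0 of 10 called in either state. The 11 measured acute-phase genes had exercise effects below 0 in 9 of 11 on the vitamin E diet (median -0.03) and above 0 in 11 of 11 on the control diet (median 0.20, highest 1.11), and the 11 vitamin E estimates in exercised mice were all below 0 (median -0.16), with 0 of 11 called in each comparison. Exercised control mice 3 and 6 had the highest acute-phase means of their group, 11.27 and 11.09, and without them the interaction of Nr4a1 was -0.74. The part of either list in the diet estimates of the 7 genes was not tested.

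**Figure D3:**
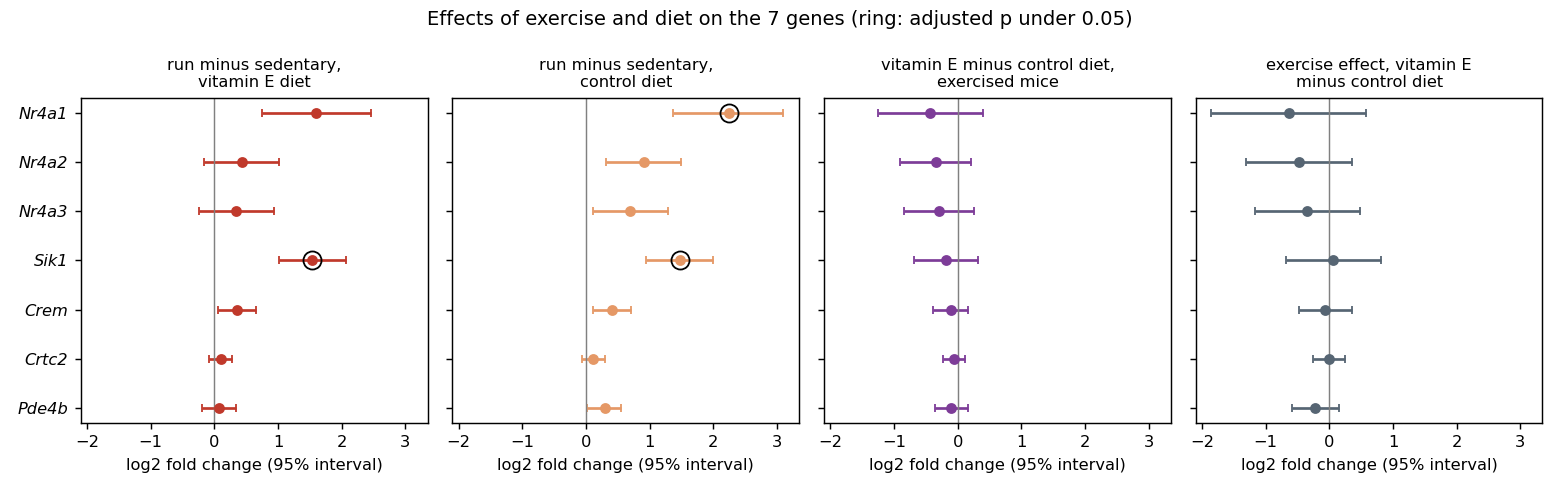
Log2 fold changes with 95% intervals for the 7 genes, for exercise on the vitamin E diet, exercise on the control diet, vitamin E in exercised mice and the interaction; rings mark an adjusted p under 0.05. The rings stand at Sik1 with 1.53 on the vitamin E diet and at Nr4a1 with 2.24 and Sik1 with 1.47 on the control diet, and all intervals for vitamin E and for the interaction cross 0.

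Whether the genes varied together between mice of the same group was examined on deviations from the group means over 44 mice. All 21 pairs had a positive Pearson r. With 100000 permutations of the mice within groups, two-sided, and adjustment over the 21 pairs, 12 passed by r, 11 by Spearman's rho and 10 by both. The share of correlated pairs among all probe sets was not determined, so these counts do not show a trait particular to the 7 genes. By r the Nr4a genes formed the closest pairs. For Nr4a1 and Nr4a3, r was 0.71 (adjusted permutation p = 0.00042) and rho 0.60 (adjusted permutation p = 0.0023), with r 0.63 without the 2 most distant mice, 0.65 in series 24 and 0.80 in series 27. Within single groups r was 0.71 in exercised mice on vitamin E and 0.88 in those on control diet. It was weaker in sedentary mice, at 0.17 on vitamin E and 0.36 on control diet. Nr4a3 lay below the filter in both sedentary groups, with mean log2 levels of 1.74 on vitamin E and 1.69 on control diet, close to the array medians. Whether low signal lowered r there, in this or another pair with Nr4a3, was not tested. For Nr4a2 and Nr4a3, r was 0.70 (adjusted permutation p = 0.00052) and rho 0.50 (adjusted permutation p = 0.0041), with r 0.54 without the 2 most distant mice, 0.48 in series 24 and 0.76 in series 27. This pair also had a higher r in exercised mice, 0.75 on vitamin E and 0.81 on control diet, against 0.30 in each sedentary group. Without exercised control mice 7 and 9 this pair had an r of 0.50 (adjusted permutation p = 0.021) and a rho of 0.32 (adjusted permutation p = 0.11), so the call by rho was lost. Sik1 and Crem then had a higher r of 0.56, and Nr4a1 and Nr4a3 one of 0.58 (adjusted permutation p = 0.0058).

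Nr4a1 and Nr4a2 had an r of 0.61 (adjusted permutation p = 0.0019) but a rho of 0.28 (adjusted permutation p = 0.12). Without exercised control mice 7 and 9 r was 0.34 (adjusted permutation p = 0.096), so the call by r was lost. Among sets of mice that do not hold these 2, r was 0.49 in series 24 and 0.51 in exercised mice on vitamin E. It was 0.24 in sedentary mice on vitamin E and -0.24 in those on control diet. Sik1 and Crem had an r of 0.58 (adjusted permutation p = 0.0007) and a rho of 0.53 (adjusted permutation p = 0.0041), with 0.65 in series 24 and 0.44 in series 27. Sik1 and its substrate Crtc2 had an r of 0.47 (adjusted permutation p = 0.0058) and a rho of 0.47 (adjusted permutation p = 0.0063), with 0.34 in series 24 and 0.54 in series 27, although Crtc2 was not called for exercise. The weakest pairs included Crtc2 with Nr4a2, with an r of 0.06 (adjusted permutation p = 0.74). All values come from 1 array per mouse, so gene pairs also share any quality of that array.

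**Figure D4:**
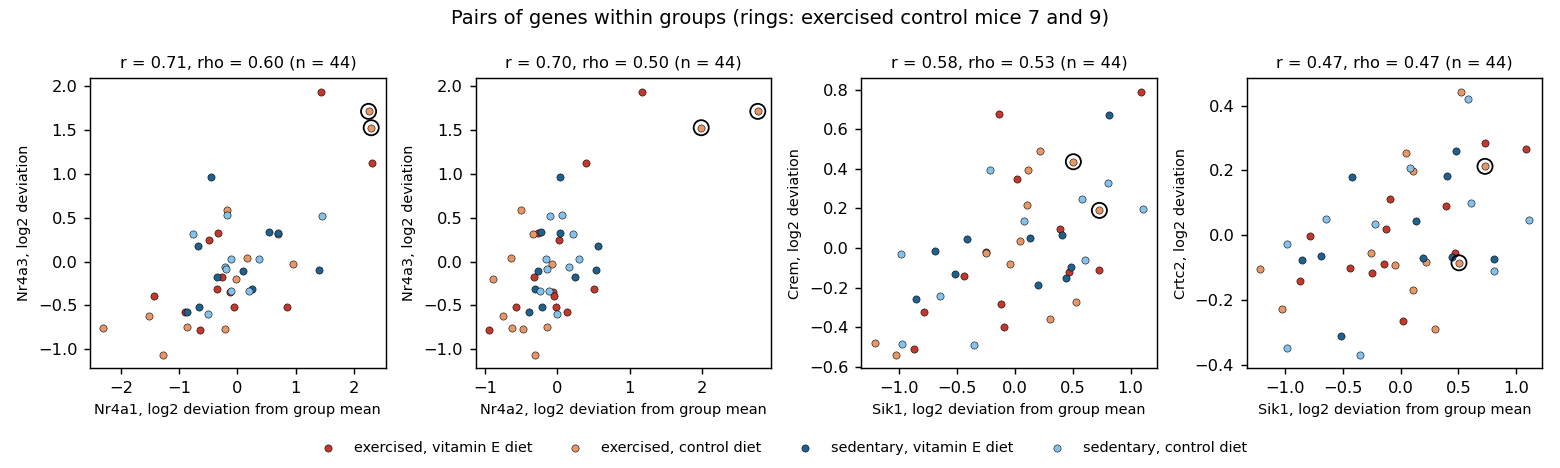
Deviations of log2 expression from the group mean in 44 mice for 4 pairs of genes, coloured by group, with rings on exercised control mice 7 and 9 and Pearson r and Spearman rho above each panel. The ringed mice lie at the upper right of both Nr4a panels (r = 0.71 and 0.70) and inside the cloud in the Sik1 panels (r = 0.58 with Crem and 0.47 with Crtc2).

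The transcripts most like each gene over the 44 mice were taken by the highest r of the same deviations, as a description. Nr4a1 was closest to Nr4a3 (r = 0.71), to Atf3, a stress-induced transcription factor (0.70), and to Tnfaip6, a secreted hyaluronan-binding protein (0.70). Nr4a2 was closest to the AP-1 subunit Fosl2 (0.76), the MAP kinase phosphatase Dusp4 (0.73) and Nr4a3 (0.70), and Nr4a3 to Nr4a1, Nr4a2 and the glycogen-targeting phosphatase subunit Ppp1r3g (0.69). Sik1 had the closest neighbours of the 7, Irs2, an adaptor of the insulin receptor (0.88), Fam222a (0.84) and Igfbp1, a secreted binding protein of insulin-like growth factors (0.83). Crem was closest to the RNA-editing enzyme Apobec1 (0.77), the repressor Nfil3 (0.76) and the general transcription factor Gtf2b (0.75). For Crtc2 they were Mat1a, an enzyme of S-adenosylmethionine synthesis (0.59), the kinase Sik3 (0.55) and Zc3hav1 (0.55), and for Pde4b Sugct (0.60), Dhx32 (0.55) and Gm13363 (0.55).

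The machinery that makes, degrades and senses cAMP was examined in 3 further lists. Of 17 genes of cAMP production and PKA, 12 passed the filter and 0 were called for exercise over both diets, with a median effect of 0.02 and a range of -0.07 to 0.11. Prkar1a, a regulatory subunit of PKA, had the smallest p of this list (0.11, unadjusted p = 0.0222, adjusted p = 0.399). Of 10 further phosphodiesterases 6 passed the filter and 0 were called, within -0.07 to 0.05. Of 9 other CREB factors, coactivators and kinases 8 passed the filter and 0 were called, with 0.18 for Sik3 (adjusted p = 0.359), 0.12 for the acetyltransferase Ep300 (adjusted p = 0.603) and -0.20 for the coactivator Crtc1 (adjusted p = 0.622). Of all probe sets 1.19% were called in this comparison in either direction, so no call in lists of this size is near the overall share. At an unadjusted p under 0.05 there were 1 of 12, 0 of 6 and 1 of 8 genes, against 9.26% of all probe sets. The mean over both diets does not show opposite effects. The salt-inducible kinase Sik2, named after its values were seen, had an effect of -0.23 on the vitamin E diet and 0.32 on the control diet, with an interaction of -0.55 (standard error 0.18, unadjusted p = 0.00319, adjusted p = 0.771). In sedentary mice the vitamin E estimate of Sik2 was 0.41 (unadjusted p = 0.003, adjusted p = 0.803 from limma), not called. In exercised mice that estimate was -0.14 (unadjusted p = 0.242 from limma). The median of all probe sets was 0.00 for exercise over both diets and -0.04 for the interaction.

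Other genes known to respond to CREB were called higher as well, though not all of those listed. Of 15 listed genes 12 passed the filter, and 9 were called higher over both diets, 5 on the vitamin E diet and 8 on the control diet, with 0 lower in each case. Of all probe sets 0.961%, 0.2% and 0.599% were called higher in these comparisons. The genes not called over both diets, named for that reason, were Pck1 (0.16, adjusted p = 0.162), Lpin1 (0.47, adjusted p = 0.148) and Junb (0.36, adjusted p = 0.431 from limma). All 12 estimates were above 0, with a median of 0.69 on the vitamin E diet and 0.75 on the control diet. Fos and Fosb, early transcription factors named here after their values were seen, had a probe set but stayed below the filter in every group and were not tested. The mean log2 level of Fos was 1.56 ± 0.29 (SD, n = 12) in exercised and 1.41 ± 0.32 (SD, n = 10) in sedentary vitamin E-supplemented mice, and 1.62 ± 0.40 (SD, n = 12) in exercised and 1.2 ± 0.26 (SD, n = 10) in sedentary control-fed mice. Fosb averaged between 0.83 and 0.98 in the 4 groups. The MAP kinase phosphatase Dusp1 had an effect of 1.02 on the vitamin E diet (standard error 0.14, adjusted p = 6.92e-05) and 1.45 on the control diet (standard error 0.14, adjusted p = 5.36e-09). The early transcription factor Egr1 rose by 1.52 with vitamin E (adjusted p = 0.000261) and 1.06 with control diet (adjusted p = 0.0161). The G protein regulator Rgs2 rose by 1.08 with vitamin E (adjusted p = 0.00624) and 1.15 with control diet (adjusted p = 0.00155). Tat, an enzyme of tyrosine breakdown, rose by 0.33 with vitamin E (adjusted p = 0.00736) and 0.38 with control diet (adjusted p = 0.000638). The mean log2 level over the 12 genes lay between 7.27 and 7.74 in exercised and between 6.42 and 7.12 in sedentary vitamin E-supplemented mice, and between 7.05 and 7.97 in exercised and 6.15 and 6.93 in sedentary control-fed mice, so that exercised and sedentary mice did not overlap within a diet. Several of these genes also respond to glucocorticoids or growth factors, and the list was drawn up with results of these data known. The separation of the groups by its mean is therefore a description and not a test.

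**Figure D5:**
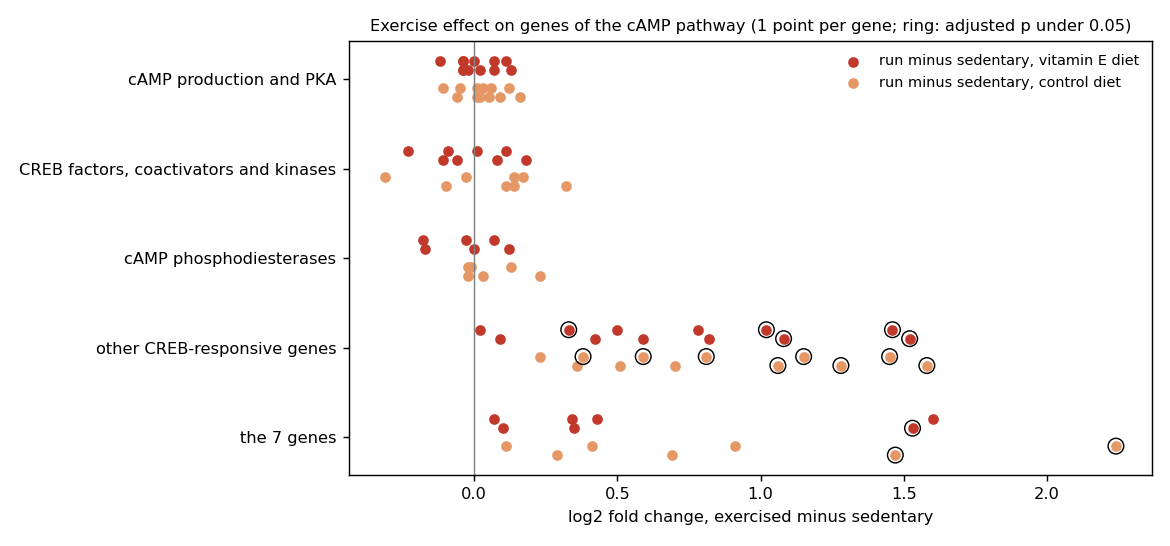
Exercise effect (log2 fold change, exercised minus sedentary) of each gene above the filter in 4 lists of the cAMP pathway and of the 7 genes, for the vitamin E diet and the control diet; rings mark an adjusted p under 0.05. Genes of cAMP production, other CREB factors and phosphodiesterases lie between -0.31 and 0.32 without a ring, while 5 genes of the CREB-responsive list on the vitamin E diet and 8 on the control diet carry one.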

How the data were processed

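Liver RNA of 44 mice was measured on Affymetrix Mouse Gene 2.1 ST arrays. The authors normalized all arrays with Expression Console (RMA). The deposited log2 values were used here without further normalization. The genome build behind the probe annotation is not given in the sources used here, and RefSeq promoters of GRCm38.p6 were used for sequences only. Windows were used for 4 of the 7 genes. None was found for Sik1 and Crtc2, and that of Crem, on chromosome 18, was left out and is not reported here. The array annotation gave 1 symbol to 23521 of 41345 probe sets, several to 1820 and none to 16004.

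The filter of the methods, a linear group mean above 4 in any group, kept 18522 probe sets, of which 11565 had 1 symbol. A single limma model (limma 3.58.1, R 4.3.3) held all mice (1 coefficient per group, two-sided moderated tests, Benjamini-Hochberg adjustment over 18522 probe sets), and the procedure was tested on simulated data. Each mouse is a separate animal. The number of arrays limits the precision. Pairs of genes were compared, and figures drawn, with Python 3.11.15. Mice of different groups that share a replicate number were not treated as paired.

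All 7 genes are named in the text. From each pathway list up to 4 genes with the smallest p for exercise over both diets could be named, and for each of the 7 genes the 3 probe sets with the highest correlation. The genes and lists were chosen with earlier results of these data known. Lists comprised cAMP production and PKA, phosphodiesterases, CREB factors, other CREB-responsive genes, acute-phase proteins and cell type markers. Alternatives were other filters, normalizations, variance settings, groups fitted, number series, the replicate block, the threshold of the methods, the Wilcoxon rank-sum test and the leaving out of mice. Some listed genes were not analysed here.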

Additional observations from a re-analysis of the deposited data

Results flagged for a closer look

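In 14 sets of sedentary values (7 genes in 2 groups of 10 mice), 2 held a mouse far from the others, meaning that its gap to the nearest mouse took up more than 0.466 of the range of the group. Chance alone does so in about 1 of 20 groups. Nr4a1 was 3.911 in sedentary control mouse 10, with the next mouse at 2.832. Crem was 3.791 in sedentary vitamin E mouse 8, with the next mouse at 3.184.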

How the results depend on the processing

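Nr4a1 and Sik1 kept their direction in all alternatives where they were called. On the control diet, the 2 called genes became 1 with a stricter filter (mean log2 above 5, which removes Nr4a1) or the Wilcoxon rank-sum test, 0 in number series 24 or 27 alone, and 5 with the threshold of the methods. On the vitamin E diet, the 1 called gene became 0 in either series alone, 3 with the threshold of the methods and 2 without exercised control mice 7 and 9, an alternative chosen after seeing the data. Over both diets, the 2 became 1 with the stricter filter or in series 27 alone. Each series alone has fewer mice. Leaving out 1 mouse at a time gave 2 to 2 genes on the control diet, 1 to 1 on the vitamin E diet, 2 to 3 over both diets, and 0 to 0 for vitamin E in exercised or sedentary mice, the interaction and the series. The 12 correlated pairs became 0 in series 24 alone and 2 in series 27 alone. With a replicate block Crem was called over both diets (0.369, adjusted p = 0.0311 from limma), and so it was with probe sets averaged per gene (adjusted p = 0.0362) or only probe sets with 1 symbol (adjusted p = 0.0385). The replicate block changed no other call and gave 212 against 221 called probe sets over both diets. Mice of different groups with the same replicate number were at most weakly correlated (highest correlation 0.09). Of 40 mice, 9 were closest to a mouse of their own number, and the count expected for unpaired mice was not determined.

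Uncalled effects changed sign as follows, and the cause was not tested. Quantile normalization gave an interaction of 0.001 for Crem and 0.03 for Crtc2. Series 24 alone gave a vitamin E effect in exercised mice of 0.414 for Nr4a1 and 0.145 for Pde4b, in sedentary mice of -0.017 for Nr4a2, and an interaction of 0.374 for Nr4a1 and 0.01 for Crem. Series 27 alone gave an exercise effect of -0.025 for Crtc2 on the control diet and -0.055 for Pde4b on the vitamin E diet, a vitamin E effect of 0.036 for Crtc2 in exercised and -0.183 for Nr4a3 in sedentary mice, and an interaction of 0.065 for Crtc2. Without exercised control mice 3 and 6 the interaction of Crtc2 was 0.015. Without mice 7 and 9 the vitamin E effect in exercised mice was 0.029 for Nr4a1, 0.133 for Nr4a2 and 0.031 for Nr4a3, the interaction was 0.006 for Crem and 0 for Crtc2, and the difference between series was -0.137 for Nr4a2 and -0.248 for Nr4a3.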
